A study of Mus musculus with 12 samples.

Results

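The gene set was 36 genes of cholesterol, fatty acid and myelin lipid synthesis, taken by symbol from the 24346 genes of the deposited tables. All 36 were present, and all 36 passed the filter on low counts that 17380 genes passed. The set held 17 enzymes of sterol synthesis, 4 regulators of that pathway, 3 enzymes of fatty acid synthesis, 4 desaturases, 4 elongases and 4 enzymes of myelin sphingolipid synthesis. The RNA came from midbrain of C57BL/6 mice, injected in the substantia nigra of both hemispheres with either saline or fibrils formed beforehand from G51D α-synuclein (20 µg at 5 µg/µL), and examined 7 or 12 weeks later. The 4 groups were saline at 7 weeks, synuclein at 7 weeks, saline at 12 weeks and synuclein at 12 weeks, with 3 libraries each. Cells were micro-dissected and sorted for hKO1, a fluorescent protein used here to mark dopaminergic neurons. The promoter behind hKO1, and the sex and age of the mice, are not given in the labels, which call the cells neural cells. The study asked how expression in dopaminergic neurons differs after the fibrils at each time.

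Cholesterol is made from acetyl-CoA through mevalonate, the isoprenoids, squalene and lanosterol, and the brain makes nearly all of its own because the blood-brain barrier keeps out lipoprotein cholesterol. Transcription of the pathway is driven by SREBP-2, the product of Srebf2, and that of fatty acid synthesis and desaturation by SREBP-1, the product of Srebf1. Scap escorts both proteins to the Golgi for cleavage and Insig1 holds them back when sterol is plentiful. Oligodendrocytes are the main makers of myelin lipid, in which very long chain fatty acids, galactosylceramide and sulfatide sit beside cholesterol.

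A stretch of promoter is shown for 5 members: the sphingolipid enzyme Gal3st1, which edgeR called over time, and the sphingolipid enzyme Ugt8a and the sterol enzymes Hmgcs1, Cyp51 and Idi1, which it did not call. The 5 were picked after their values were seen. Each run is the 250 bases before an annotated transcript start in RefSeq (GRCm38.p6), the one nearest to the deposited gene's 5′ end, and reads 5′ to 3′ on the gene's strand. The run of Ugt8a overlaps the annotated gene, which has a start farther upstream, by 30 bases, and the other runs lie outside their genes. Capitals mark CCAAT, the box bound by NF-Y, or its reverse complement ATTGG, and TCACNCCAC, a core of the sterol regulatory element, on either strand.
Gal3st1, chr11:3983386-3983635, plus strand: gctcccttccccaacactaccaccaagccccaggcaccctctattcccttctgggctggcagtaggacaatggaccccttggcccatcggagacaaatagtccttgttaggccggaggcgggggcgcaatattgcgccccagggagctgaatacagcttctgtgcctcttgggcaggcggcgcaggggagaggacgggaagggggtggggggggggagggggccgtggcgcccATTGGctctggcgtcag
Ugt8a, chr3:125938653-125938902, minus strand: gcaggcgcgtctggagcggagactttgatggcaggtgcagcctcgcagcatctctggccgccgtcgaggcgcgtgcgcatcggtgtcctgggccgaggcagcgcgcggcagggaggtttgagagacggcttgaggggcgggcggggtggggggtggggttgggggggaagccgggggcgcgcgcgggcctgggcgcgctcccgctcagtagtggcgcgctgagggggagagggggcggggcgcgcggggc
Hmgcs1, chr13:119690101-119690350, plus strand: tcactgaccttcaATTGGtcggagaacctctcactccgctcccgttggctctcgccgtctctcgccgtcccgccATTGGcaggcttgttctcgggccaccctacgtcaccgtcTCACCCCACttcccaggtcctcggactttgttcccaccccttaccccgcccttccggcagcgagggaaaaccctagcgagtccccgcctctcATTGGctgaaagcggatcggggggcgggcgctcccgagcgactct
Cyp51, chr5:4104698-4104947, minus strand: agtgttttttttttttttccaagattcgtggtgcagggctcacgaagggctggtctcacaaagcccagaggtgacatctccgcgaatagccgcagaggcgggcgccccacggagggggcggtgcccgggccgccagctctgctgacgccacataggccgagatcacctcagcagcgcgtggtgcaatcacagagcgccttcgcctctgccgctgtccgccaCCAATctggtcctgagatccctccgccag
Idi1, chr13:8885356-8885605, plus strand: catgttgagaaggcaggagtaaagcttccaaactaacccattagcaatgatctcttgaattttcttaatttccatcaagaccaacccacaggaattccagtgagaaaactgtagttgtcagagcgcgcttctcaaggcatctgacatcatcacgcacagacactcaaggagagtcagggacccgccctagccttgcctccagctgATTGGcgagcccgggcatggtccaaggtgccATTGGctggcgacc
The same 250 bases were at hand for 29 of the 36 members, and Fdps, Fdft1, Sqle, Scd1, Scd2, Fads1 and Fa2h had no entry. CCAAT on either strand stood in 19 of the 29, among them 12 of 14 sterol enzymes, against 33.8% of 32851 mouse promoter entries of the same length. TCACNCCAC stood in 1 of the 29, Hmgcs1, against 1.05% of all promoters. GGGCGG, the GC box, stood in 22 of the 29, among them 13 of 14 sterol enzymes, against 32.7%. The shares were not matched for GC content, which had a median of 64.8% over the 29 and of 52.4% over all promoters. These matches describe letters in a window and are not measured binding sites.

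The libraries held 2506730 to 5533324 assigned fragments. Replicate 2 of synuclein at 12 weeks stood apart with 17409 genes with a fragment, against 19960 to 21135 in the others, and the 3 pairs within that group correlated at 0.788 to 0.859 across genes, lowest between its replicates 1 and 2, against 0.880 to 0.926 in the other groups. The members called over time are therefore given also without replicates 1 and 2 of that group, the pair that correlated least. The sorted material was not neuronal RNA alone. The 15 oligodendrocyte markers summed to 20089 to 55211 CPM, against 542 to 2496.5 CPM for the 10 dopaminergic markers, and no oligodendrocyte or dopaminergic marker was at 0 in any library. The 6 endothelial markers summed to 7145 to 17437 CPM. CPM is the count as a share of its TMM-scaled library, in edgeR's usual unit.

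Per length of transcript, on the FPKM scale, Scd2 and Cers2 had the highest levels of the 36. Scd2, a stearoyl-CoA desaturase that makes monounsaturated fatty acids and is the main form in brain, had a mean level of 258 FPKM over the 12 libraries (149 to 436). Cers2, the ceramide synthase for very long acyl chains, followed at 228 FPKM (159 to 385), and the ranges of these neighbours overlapped. The deposited model of Cers2 reaches into Setdb1, so its level can hold reads of that gene. Elovl1, an elongase of very long chains whose deposited model overlaps Cdc20, had 129 FPKM, and Fdps, farnesyl diphosphate synthase, was the highest sterol enzyme at 114 FPKM. Next came Ugt8a, which forms galactosylceramide, at 94.5 FPKM and Elovl5, an elongase of polyunsaturated chains, at 93.8 FPKM. The lowest were Acaca, the acetyl-CoA carboxylase that commits carbon to fatty acids, at 6.00 FPKM, Lss, lanosterol synthase, at 4.32 FPKM, and Hsd17b7, a keto-reductase of the sterol path, at 2.68 FPKM.

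For 12 against 7 weeks, averaged over both treatments, edgeR called 3 members higher and none lower. They were the desaturases Scd2 and Scd1 and the sulfatide enzyme Gal3st1. Over all 17380 genes edgeR called 94 higher (0.541%) and 51 lower (0.293%) in this comparison. Libraries at 7 and 12 weeks came from separate samples. Time after injection therefore cannot be told apart from anything else that differed between them, such as mouse age or the run of sorting. At an unadjusted p under 0.05 there were 9 members, all higher at 12 weeks, against 788 genes higher (4.53%). DESeq2 called 7 members, the 3 and also Srebf1, Fads1, Fa2h and Cers2, against 3.16% of the genes it tested, and limma-voom called 3, Scd2, Scd1 and Fa2h, against 0.765%. The log2 fold change was above 0 for 28 of the 36 members, against 47% of all genes, and the members' median was 0.29, against −0.03 over all genes tested. Values were above 0 for 4 of 4 desaturases, 4 of 4 sphingolipid enzymes, 4 of 4 elongases, 3 of 4 regulators, 2 of 3 enzymes of fatty acid synthesis and 11 of 17 sterol enzymes. The medians were 0.85 for the desaturases, 0.82 for the sphingolipid enzymes, 0.25 for the regulators, 0.23 for the elongases, 0.21 for fatty acid synthesis and 0.20 for the sterol enzymes.

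**Figure D1:**
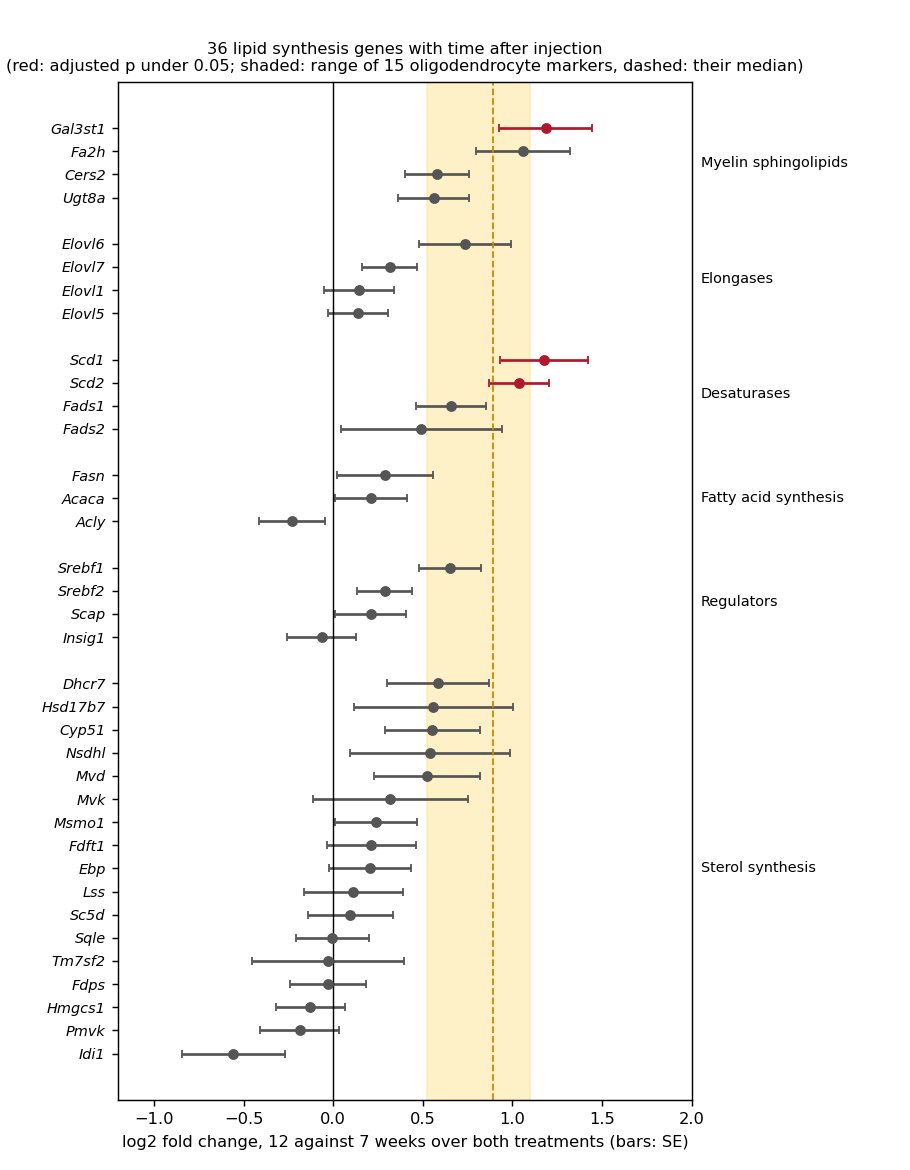
Log2 fold change of each of the 36 members from 7 to 12 weeks over both treatments (horizontal axis; points with SE bars), grouped by role, with members past the edgeR test in red. Shading spans the 15 oligodendrocyte markers, from 0.53 to 1.10, and the dashed line is their median of 0.89; Scd2, Scd1, Gal3st1 and Fa2h lie to its right and all 17 sterol enzymes to its left.

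Scd2 had the smallest adjusted p of the 36. At 7 weeks it was at 884, 936 and 816 CPM in saline replicates 1, 2 and 3 and at 957, 871 and 1053 CPM in synuclein. At 12 weeks it was at 2409, 1414 and 1947 CPM in saline and at 2247, 1833 and 1451 CPM in synuclein. Every library at 12 weeks was above every library at 7 weeks. The level rose from 919.6 ± 82.0 to 1883 ± 405 CPM (SD, n = 6 each), a log2 fold change of 1.04 ± 0.17 (SE), with an edgeR adjusted p of 0.0160. The call was kept in 19 of 22 other settings and ended in 3. With limma on log2(FPKM + 1) and log2(FPKM + 0.1) the adjusted p was 0.151 and 0.214, and without synuclein replicates 1 and 2 at 12 weeks the log2 fold change was 0.86 with an edgeR adjusted p of 0.155.

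Scd1, the stearoyl-CoA desaturase best known from liver and fat, was far lower than Scd2 per length, at 14.5 FPKM. In saline it was at 77.0, 35.8 and 31.3 CPM at 7 weeks and 131, 67.5 and 110.0 CPM at 12 weeks. After synuclein it was at 34.7, 33.2 and 44.9 CPM at 7 weeks and 97.0, 104 and 67.2 CPM at 12 weeks. The times overlapped through saline replicate 1 at 7 weeks, which was above 2 libraries of 12 weeks. Scd1 rose by 1.18 ± 0.25 on the log2 scale (SE), with an edgeR adjusted p of 0.0376. Leaving out saline replicate 2 or 3 or synuclein replicate 1 or 2 at 7 weeks, or saline replicate 1 or 3 or synuclein replicate 1 at 12 weeks, each ended the call, with log2 fold changes of 1.08 to 1.18 and adjusted p-values of 0.0638 to 0.0980. Without synuclein replicates 1 and 2 at 12 weeks the call also ended, with a log2 fold change of 0.97. Scd1 and Scd2 are close relatives in 1 cluster on chromosome 19, so the split of reads between them depends on the counting.

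The remaining desaturases act on polyunsaturated fatty acids. Fads1, the delta-5 desaturase, ranged from 57.8 to 86.4 CPM with a median of 73.5 at 7 weeks and from 89.7 to 161 CPM with a median of 103 at 12 weeks. All 6 libraries of 12 weeks were above all 6 of 7 weeks, as also for Scd2 and Srebf1, against 0.558% of all genes tested that were separated in this way. Its log2 fold change was 0.66 ± 0.20 (SE) and the edgeR adjusted p 0.149, and DESeq2 called it at 0.68 with an adjusted p of 0.0424. Fads2, the delta-6 desaturase, was scarce, with 9 to 58 fragments in a library, and its log2 fold change was 0.49 ± 0.45.

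**Figure D2:**
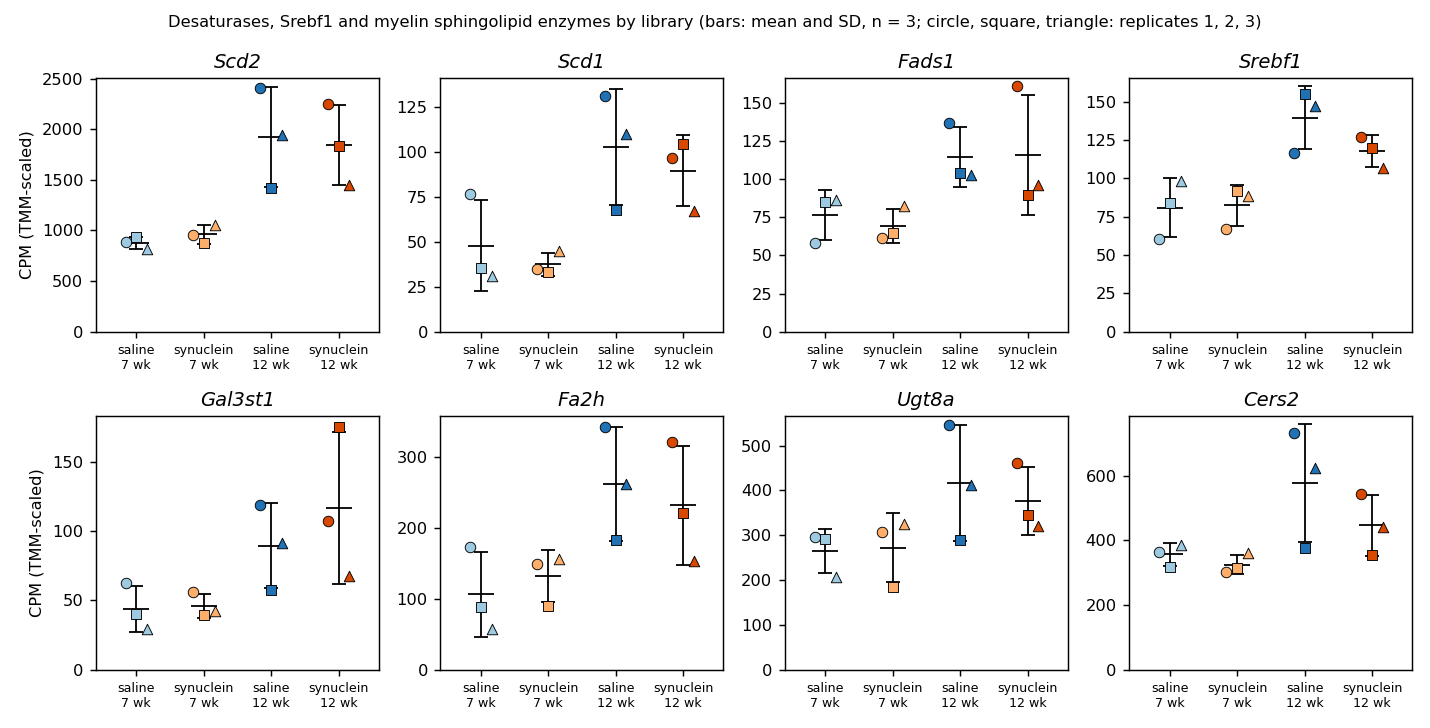
TMM-scaled CPM of the desaturases Scd2, Scd1 and Fads1, the regulator Srebf1 and the sphingolipid enzymes Gal3st1, Fa2h, Ugt8a and Cers2 (vertical axes from 0) in each of the 12 libraries, by group, with the mean and SD of 3 libraries. Scd2, Fads1 and Srebf1 do not overlap between 7 and 12 weeks, and saline and synuclein libraries of 1 time overlap in each panel.

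All 4 enzymes of myelin sphingolipid synthesis had log2 fold changes above 0 and an unadjusted p under 0.05, and 1 passed over all genes. Gal3st1, the sulfotransferase that turns galactosylceramide into sulfatide, was at 62.4, 40.1 and 29.3 CPM in saline and 56.1, 39.8 and 42.3 CPM in synuclein at 7 weeks. By 12 weeks it was at 119, 57.8 and 91.9 CPM in saline and 107, 176 and 67.7 CPM in synuclein. Only saline replicate 2 at 12 weeks lay within the range of 7 weeks, and synuclein replicate 2 was the highest of all. Gal3st1 rose by 1.19 ± 0.26 on the log2 scale, with an edgeR adjusted p of 0.0438. That call was close to the threshold and held in 9 of 22 other settings, and with limma-voom the adjusted p was 0.0552. It ended when any 1 library was left out other than saline replicate 1 at 7 weeks, saline replicate 2 at 12 weeks or synuclein replicate 3 at 12 weeks, with log2 fold changes of 0.99 to 1.28 and adjusted p-values of 0.0511 to 0.114. Without synuclein replicates 1 and 2 at 12 weeks the call also ended, with a log2 fold change of 0.79.

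Fa2h, the hydroxylase that gives myelin its 2-hydroxylated fatty acids, ranged from 57.1 to 173 CPM with a median of 119 at 7 weeks and from 153 to 342 CPM with a median of 241 at 12 weeks. Its log2 fold change of 1.06 ± 0.26 (SE) had an edgeR adjusted p of 0.0694. DESeq2, limma-voom, a fit with no filter and the fits without saline replicate 1 at 7 weeks, saline replicate 2 at 12 weeks or synuclein replicate 3 at 12 weeks called it, with adjusted p-values of 0.00763 to 0.0474. Cers2 was at 364, 318 and 387 CPM in saline and 302, 314 and 359.7 CPM in synuclein at 7 weeks. In libraries of 12 weeks it was at 733, 377 and 623 CPM in saline and 544, 356 and 441 CPM in synuclein. The times overlapped through replicate 2 of each group of 12 weeks. Its log2 fold change was 0.58 ± 0.18 and the edgeR adjusted p 0.170, which became 0.0485 without saline replicate 2 at 12 weeks. DESeq2 called Cers2 at 0.60 with an adjusted p of 0.0432. Ugt8a was at 296, 292 and 207 CPM in saline and 306, 184 and 326 CPM in synuclein at 7 weeks. Values at 12 weeks were 547, 289.5 and 412 CPM in saline and 462, 346 and 321 CPM in synuclein, so the times overlapped. Its log2 fold change was 0.56 ± 0.20, with an edgeR adjusted p of 0.272.

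No regulator was called by edgeR, and DESeq2 called Srebf1. Srebf1 was at 60.4, 84.2 and 98.1 CPM in saline and 67.1, 91.9 and 88.3 CPM in synuclein at 7 weeks. At 12 weeks it was at 116, 155 and 147 CPM in saline and 127, 119.6 and 107 CPM in synuclein. The times did not overlap, and the log2 fold change was 0.65 ± 0.18 (SE) with an edgeR adjusted p of 0.0999, against 0.67 and 0.0147 with DESeq2. The deposited locus of Srebf1 also spans Rai1, which was counted as a gene of its own. How reads were split between them was not tested, so the level of Srebf1 can hold reads of Rai1. Srebf2 was at 125, 151 and 143 CPM in saline and 166, 202 and 151 CPM in synuclein at 7 weeks. By 12 weeks it was at 217, 159 and 165 CPM in saline and 185, 199.9 and 213 CPM in synuclein, an overlap between the times, with a log2 fold change of 0.29 ± 0.15 and an edgeR adjusted p of 0.599. The log2 fold change was 0.21 for Scap and −0.07 for Insig1, neither called.

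No sterol enzyme was called in either direction over time by edgeR, DESeq2 or limma-voom, and none had an unadjusted edgeR p under 0.05. Of the 17, 11 had log2 fold changes above 0 and 6 below, or 12 and 5 with RLE scaling, where Sqle crossed 0. They ran from −0.56 for Idi1, the isomerase of the isoprenoid units, to 0.58 for Dhcr7, the last reductase to cholesterol. Hmgcs1, the HMG-CoA synthase that starts the path, was at 155, 135 and 98.4 CPM in saline and 167, 133 and 111 CPM in synuclein at 7 weeks. In libraries of 12 weeks it was at 142, 115 and 181 CPM in saline and 73.3, 118 and 115 CPM in synuclein. The 4 groups overlapped, and the log2 fold change over time was −0.13 ± 0.19 with an edgeR adjusted p of 0.930. Fdps was at 147, 100.4 and 105 CPM in saline and 186, 117 and 86.0 CPM in synuclein at 7 weeks. Values at 12 weeks were 158, 93.7 and 102 CPM in saline and 151, 101 and 118 CPM in synuclein. Its groups overlapped too, with a log2 fold change of −0.03 ± 0.21 and an edgeR adjusted p of 0.988. Among the later enzymes the log2 fold change was 0.55 for Cyp51, the lanosterol demethylase, 0.24 for Msmo1, the C4-methyl oxidase, 0.54 for Nsdhl, the C4 decarboxylase, 0.20 for Ebp, the sterol isomerase, and 0.10 for Sc5d, the C5 desaturase. For Mvk and Pmvk, the kinases of mevalonate, it was 0.32 and −0.19, and for Mvd, the decarboxylase after them, 0.52. Squalene synthase Fdft1, whose model overlaps Ctsb, was at 0.21, Lss, whose model overlaps 4930483K19Rik, at 0.11, the reductase Tm7sf2, which shares its locus with Vps51, at −0.03, and Hsd17b7 at 0.56.

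Fatty acid synthesis and elongation gave no called member over time. Acly, which supplies cytosolic acetyl-CoA, was at 104, 92.3 and 164 CPM in saline and 156, 175 and 110.0 CPM in synuclein at 7 weeks. At 12 weeks it was at 98.3, 118 and 109 CPM in saline and 102, 124 and 131 CPM in synuclein, all within the range of 7 weeks, with a log2 fold change of −0.23 ± 0.18 and an edgeR adjusted p of 0.809. Fasn, fatty acid synthase, was at 109, 80.5 and 71.5 CPM in saline and 109, 126 and 125 CPM in synuclein at 7 weeks. By 12 weeks it was at 158, 127 and 139 CPM in saline and 189.8, 38.1 and 102 CPM in synuclein, where replicates 1 and 2 gave the highest and the lowest value of all 12 libraries. Its log2 fold change was 0.29 ± 0.27, with an edgeR adjusted p of 0.843, and that of Acaca was 0.21.

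Among the elongases Elovl7, which lengthens saturated very long chains, ranged from 197 to 284 CPM with a median of 212 at 7 weeks and from 249 to 335 CPM with a median of 264 at 12 weeks, and its log2 fold change was 0.31 ± 0.16 (edgeR adjusted p = 0.543). Elovl5 ranged from 212 to 269 CPM with a median of 234 at 7 weeks and from 184 to 376 CPM with a median of 253 at 12 weeks, with a log2 fold change of 0.14 ± 0.17 (edgeR adjusted p = 0.901). Both overlapped between the times. Elovl6, which takes palmitate to stearate, had the largest difference of the 4, 0.73 ± 0.26, with an edgeR adjusted p of 0.267. Elovl1 was at 0.14.

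Markers of cell types also differed in this comparison. All 15 oligodendrocyte markers had log2 fold changes above 0, 7 of them called by edgeR, with a median of 0.89, and none was at 0 in any library. Their sum was 20089 to 31394 CPM in saline and 21064 to 25486 CPM in synuclein at 7 weeks, and 30352 to 55211 CPM in saline and 33551 to 48746 CPM in synuclein at 12 weeks. All 10 dopaminergic and all 6 neuronal markers had values below 0, with 2 of each called, as did all 9 microglial and all 6 endothelial markers with none called. The sign counts of the latter sets were not alike in each treatment. For the difference of the fibril effect between the times, edgeR called 0 microglial and 0 endothelial markers. Microglial markers were below 0 for 5 of 9 in saline and 9 of 9 after synuclein. Endothelial markers were below 0 for 6 of 6 in saline and 2 of 6 after synuclein. The 5 ependymal markers all lay above 0, with a median of 2.61 and none called, and Foxj1, Tmem212 and Dynlrb2 among them were at 0 in 1 or 2 libraries. The ependymal sum was 5.15 to 38.9 CPM at 7 weeks and 7.95 to 446 CPM at 12 weeks, so the times overlapped. In bulk RNA, fewer cells of a type and less RNA per cell cannot be told apart, and the part of these shifts in the members' changes was not tested.

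The role groups were then set against the oligodendrocyte markers within each library. The sphingolipid enzymes summed to 2.85% to 3.47% of the summed markers at 7 weeks and to 2.71% to 3.15% at 12 weeks. The desaturases summed to 3.28% to 4.95% and to 4.35% to 5.28%. Both ranges overlapped between the times. Scd2 made up most of the desaturase sum in every library. The sterol enzymes summed to 3.38% to 5.28% at 7 weeks and to 2.14% to 2.80% at 12 weeks, so that every library of 12 weeks was below every library of 7 weeks. Fatty acid synthesis summed to 0.878% to 1.63% and to 0.559% to 0.969%, with an overlap. The elongases summed to 1.97% to 4.22% and to 1.62% to 2.21%, and the regulators to 1.20% to 2.07% and to 0.948% to 1.502%, both with an overlap. These ratios are descriptions without a test, and the share of all genes separated in this way was not computed. The summed markers were at 20089 to 31394 CPM at 7 weeks and 30352 to 55211 CPM at 12 weeks. A set whose CPM did not change would therefore tend to a lower ratio at 12 weeks. The summed CPM of the sterol enzymes itself overlapped between the times, at 835 to 1294 at 7 weeks and 850.0 to 1313 at 12 weeks. The sums of fatty acid synthesis and of the elongases overlapped too. Without overlap were the sums of the regulators (357 to 437 and 456 to 523 CPM), the desaturases (936 to 1190 and 1603 to 2685 CPM) and the sphingolipid enzymes (627 to 895 and 906 to 1741 CPM).

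**Figure D3:**
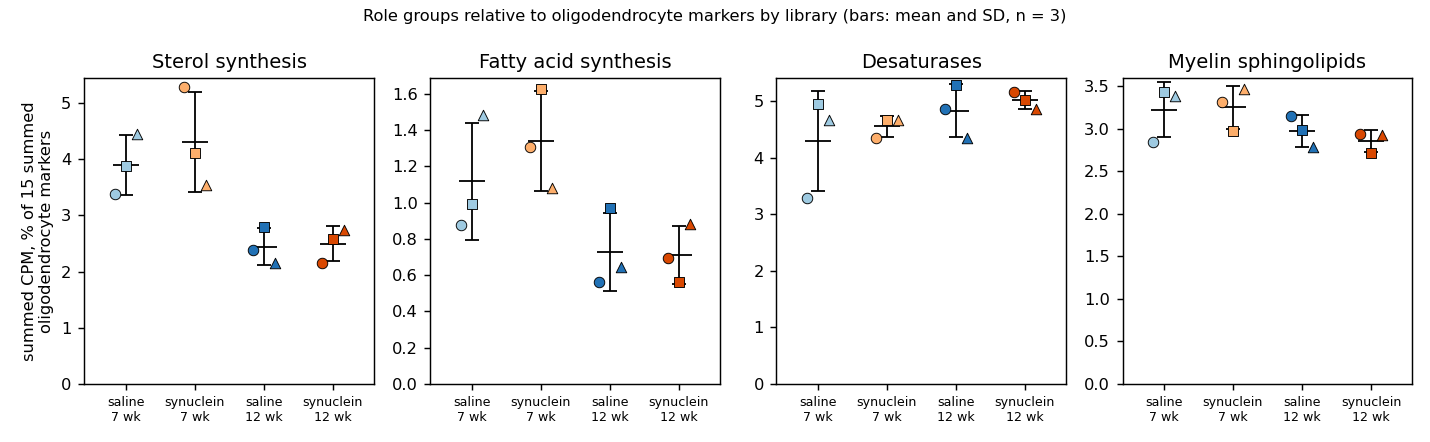
Summed CPM of 4 role groups as a percentage of the summed CPM of 15 oligodendrocyte markers (vertical axes from 0) in each library, by group, with the mean and SD of 3 libraries. Sterol enzymes lie at 3.38% to 5.28% at 7 weeks and at 2.14% to 2.80% at 12 weeks. The ranges of desaturases and of sphingolipid enzymes overlap between the times. The marker sum that divides each value was higher on average at 12 weeks.

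Within either treatment alone no member passed over all genes in the reported edgeR fit. In saline, edgeR called 0 members and 0% of all genes, with 10 members at an unadjusted p under 0.05, all higher at 12 weeks, against 3.49% of genes. DESeq2 called 2 members, Scd2 and Fa2h, against 2.37% of the 6064 genes it tested, and limma-voom none. In saline 29 of 36 members had values above 0, against 51% of genes. In 9 members, Nsdhl, Dhcr7, Srebf1, Srebf2, Fasn, Scd2, Fads1, Elovl6 and Fa2h, every saline library of 12 weeks was above every one of 7 weeks, against 8.34% of genes. The member with the smallest p was Scd2, with 1.13 ± 0.24 (SE) and an edgeR adjusted p of 0.149.

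After synuclein, edgeR called 0 members and 0% of all genes. There were 5 members at an unadjusted p under 0.05 above 0, against 3.31% of genes, and 1 below 0, against 4.28%. DESeq2 called 1, Scd2, against 0.511% of the 14861 genes it tested, and limma-voom none. Values were above 0 for 26 of 36 members, against 45.8% of genes. Libraries of 12 weeks were all above those of 7 weeks for Ebp, Srebf1, Scd1, Scd2, Fads1, Elovl7 and Gal3st1, 7 members against 5.13% of genes, and all below for Idi1, 1 member against 7.13%. Scd2 again had the smallest p, with 0.94 ± 0.24 and an edgeR adjusted p of 0.389. Without replicates 1 and 2 at 12 weeks its log2 fold change there was 0.60, from 1 remaining library. Over both treatments, 22 members were above 0 in each, 3 below 0 in each, and 11 had opposite signs. The shares of all genes in these classes were not computed.

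The fibrils were compared with saline at 7 weeks. No member passed: edgeR called 0 members and 0% of all genes, and DESeq2 and limma-voom called no member. The 3 members at an unadjusted p under 0.05 were all sterol enzymes with higher values after synuclein, against 1.01% of genes higher. They were Dhcr7, Mvd and Sqle, the squalene epoxidase that is a rate-setting step of the path. Values were above 0 for 20 of 36 members, against 51.2% of genes, with a median of 0.05 against 0.01 over all genes. In 4 members, Mvk, Mvd, Sqle and Dhcr7, every synuclein library was above every saline library, against 4.70% of genes.

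Dhcr7 was at 19.7, 9.81 and 15.8 CPM in saline and 30.1, 27.2 and 37.7 CPM in synuclein at 7 weeks, without overlap. The log2 fold change was 1.07 ± 0.41 (SE), with an unadjusted edgeR p of 0.0175 and an adjusted p of 1.0. Mvd was at 9.16, 22.2 and 9.18 CPM in saline and 30.9, 27.8 and 22.3 CPM in synuclein at 7 weeks, also without overlap, although saline replicate 2 and synuclein replicate 3 nearly met. Its log2 fold change was 0.996 ± 0.42. Sqle was at 35.5, 48.7 and 48.2 CPM in saline and 85.6, 67.0 and 51.1 CPM in synuclein, again without overlap, with a log2 fold change of 0.62 ± 0.29. Among the other 14 sterol enzymes the log2 fold change ran from −0.97 ± 0.64 for Hsd17b7 to 0.82 ± 0.62 for Mvk, with 0.54 ± 0.35 for Fdft1, 0.09 ± 0.27 for Hmgcs1 and −0.49 ± 0.39 for Lss, none called. The 17 had 10 values above 0 and 7 below, or 11 and 6 with library size as the only scaling.

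The members called over time were not called between the treatments. The log2 fold change of synuclein against saline at 7 weeks was 0.13 ± 0.24 (SE) for Scd2, −0.35 ± 0.35 for Scd1 and 0.07 ± 0.37 for Gal3st1. Of the microglial markers, 8 of 9 had values above 0 at 7 weeks, with a median of 1.13, none called, and 3 reached an unadjusted p under 0.05. Their sum was 103 to 231 CPM in saline and 228, 136 and 581 CPM in synuclein replicates 1, 2 and 3, so the highest values came from 1 library. P2ry12 and Tmem119, which define homeostatic microglia, were at 0 in 2 and 4 of the 12 libraries. That same library, synuclein replicate 3, also had the highest pericyte sum, 565 CPM. All 6 endothelial markers lay below 0 and all 5 ependymal markers above 0 in this comparison, none called. The part of these markers in the values of Dhcr7, Mvd and Sqle was not tested.

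**Figure D4:**
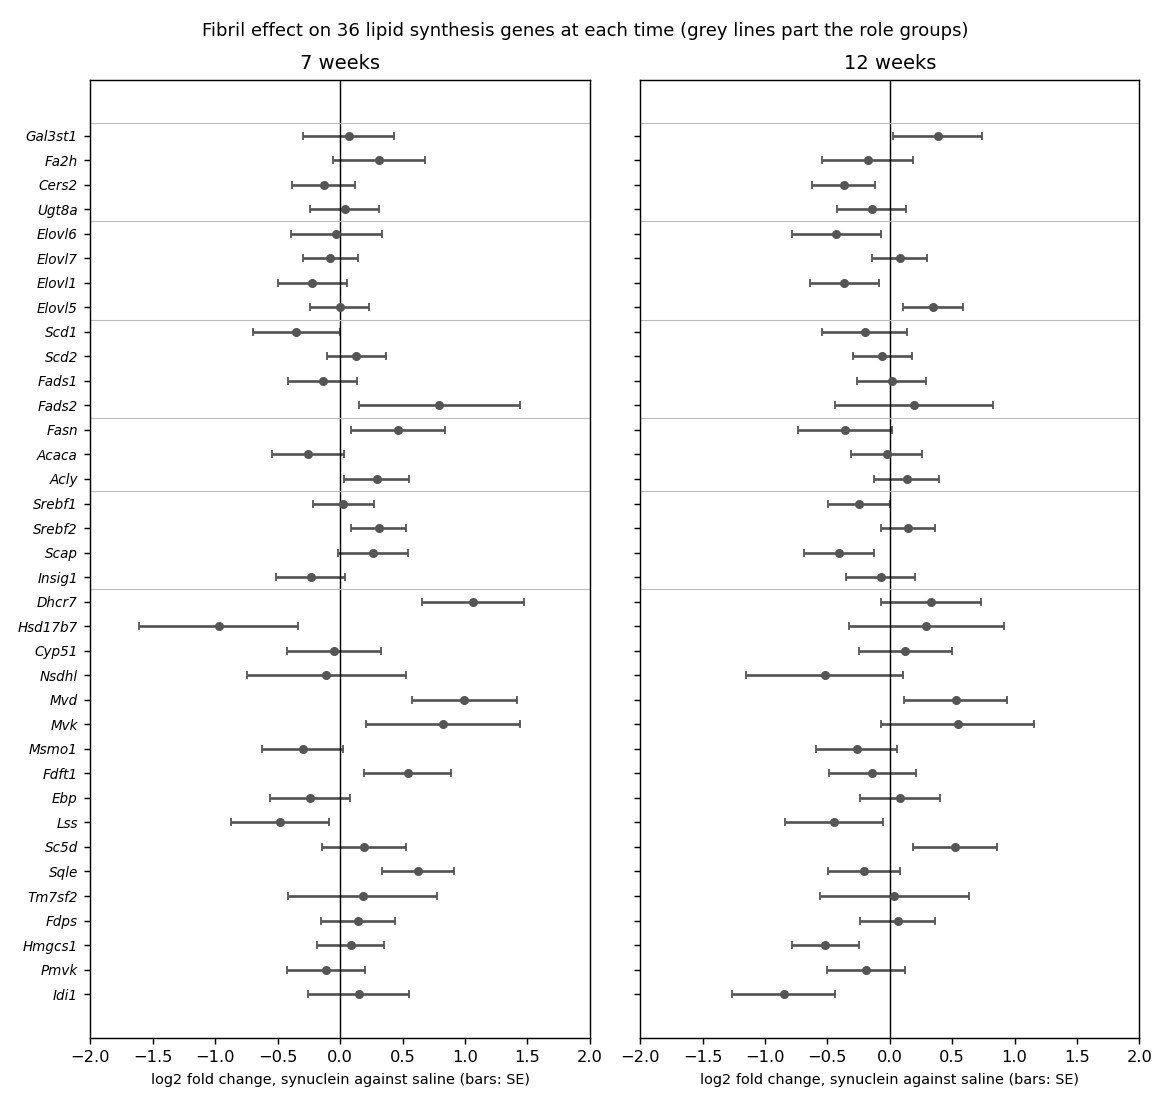
Log2 fold change of synuclein against saline (horizontal axes; points with SE bars) for the 36 members at 7 weeks (left) and 12 weeks (right), in the order of the plot of changes with time. No member passed the edgeR test at either time; Dhcr7, at 1.07, has the largest value at 7 weeks and Idi1, at −0.85, the lowest at 12 weeks.

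At 12 weeks edgeR again called 0 members and 0% of all genes, and DESeq2, which called 0.0527% of genes, and limma-voom called no member. None of the 36 reached an unadjusted p under 0.05, against 5.57% of genes in either direction. At 12 weeks 16 of 36 had values above 0, against 47.3% of genes, and their median was −0.07 against −0.04 over all genes. Synuclein libraries were all above saline libraries for Mvd alone, 1 member against 4.01% of genes, and all below for Idi1 and Elovl6, 2 members against 6.67%. Idi1 had the smallest p. It was at 88.7, 61.5 and 72.4 CPM in saline and 58.1, 11.5 and 53.8 CPM in synuclein at 12 weeks, against 89.0, 77.6 and 65.1 and 105, 60.7 and 91.7 CPM at 7 weeks. Synuclein replicate 2 at 12 weeks was the lowest of the 12 libraries by a wide margin, and the groups did not overlap even so. The log2 fold change at 12 weeks was −0.85 ± 0.41 (SE), with an unadjusted edgeR p of 0.0537 and an adjusted p of 0.887, and over 23 other settings it ran from −1.16 to −0.38. Mvd was at 21.5, 27.1 and 20.1 CPM in saline and 29.3, 37.8 and 31.7 CPM in synuclein, with a log2 fold change of 0.53 ± 0.41. Of the oligodendrocyte markers 13 of 15 had values below 0 at 12 weeks, none called, with a median of −0.18.

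**Figure D5:**
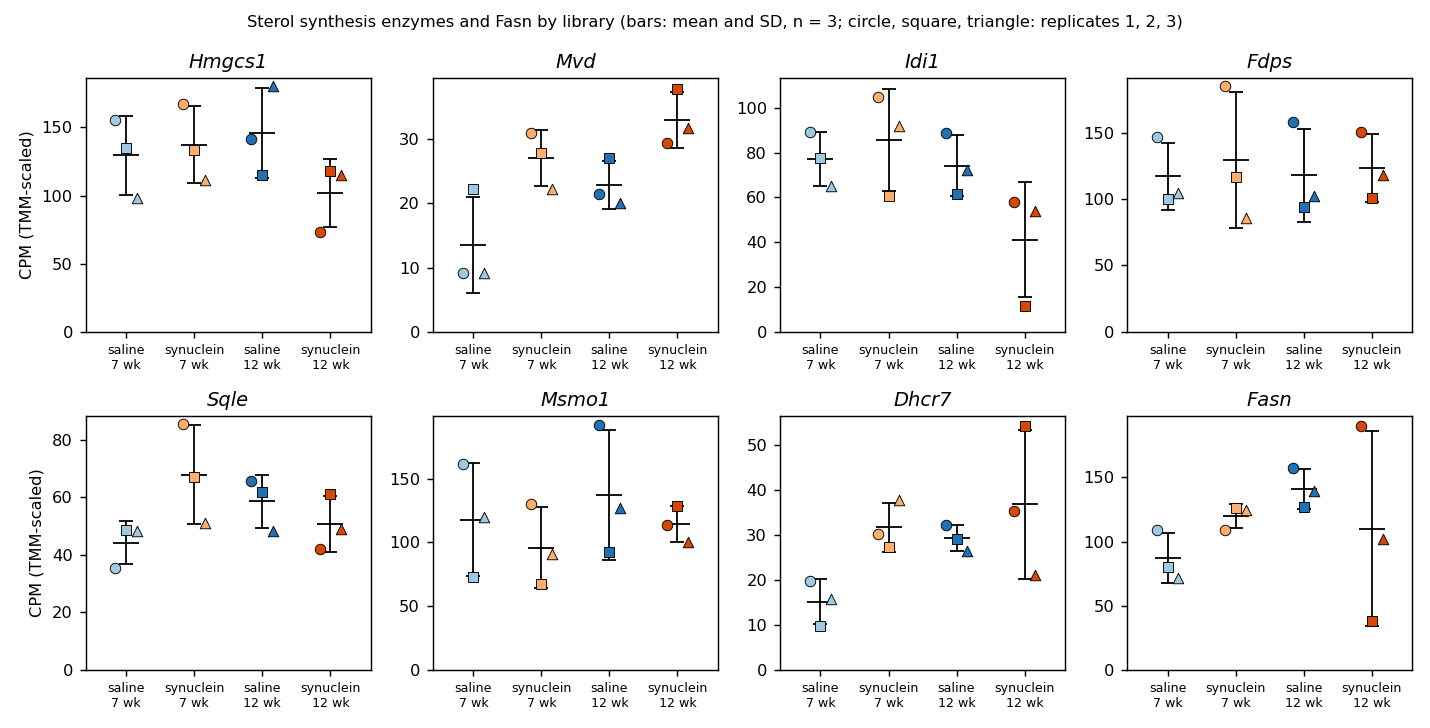
TMM-scaled CPM of 7 sterol enzymes and of Fasn (vertical axes from 0) in each of the 12 libraries, by group, with the mean and SD of 3 libraries. Dhcr7, Mvd and Sqle lie higher after synuclein at 7 weeks without overlap, and Idi1 is lowest, at 11.5 CPM, in synuclein replicate 2 at 12 weeks.

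The difference of the fibril effect between the times was not called for any member: edgeR called 0 members and 0% of all genes, DESeq2 and limma-voom called no member, and none of the 36 reached an unadjusted p under 0.05, against 4.49% of genes. Sqle had the smallest p, with a fibril effect of 0.62 at 7 weeks and −0.21 at 12 weeks, from 65.5, 61.8 and 48.2 CPM in saline and 42.0, 61.2 and 49.0 CPM in synuclein at 12 weeks. The difference was −0.83 ± 0.41 (SE), with an unadjusted edgeR p of 0.0567 and an adjusted p of 0.952. Dhcr7, at 32.2, 29.1 and 26.4 CPM in saline and 35.3, 54.0 and 21.0 CPM in synuclein at 12 weeks, overlapped between the treatments there, and its difference was −0.73 ± 0.57. Averaged over both times, edgeR called 0 members and 0% of all genes, and DESeq2, which called 0.00878% of genes, and limma-voom called no member. Mvd, at 0.76 ± 0.29, and Dhcr7, at 0.70 ± 0.28, were the 2 members at an unadjusted p under 0.05, both above 0, against 1.19% of genes, with edgeR adjusted p-values of 1.0 for each. These comparisons share libraries with those at each time and add no independent measurement.

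Libraries of 1 group could differ widely. Mvk ranged from 5.64 CPM in synuclein replicate 1 to 91.6 CPM in replicate 2 of the same group at 12 weeks, and Nsdhl from 3.95 to 45.5 CPM in the same replicates. Elovl7 and Srebf2 varied least, with coefficients of variation of 16.8% and 17.2% over the 12 libraries. Saline replicate 1 at 12 weeks held the highest value of 11 of the 36 members, among them Scd2, Scd1, Fa2h, Ugt8a and Cers2, and synuclein replicate 2 at 12 weeks that of 7, among them Gal3st1 and Mvk.

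Other genes of the same pathways were taken from lists that adjoin the members: 5 of sterol synthesis, 15 of sterol uptake, transport and efflux, 23 of fatty acid metabolism and 15 of sphingolipid metabolism. Of these 58, 57 passed the filter and edgeR called 0 in each of the 7 comparisons. For 12 against 7 weeks over both treatments 7 of 57 (12.3%) reached an unadjusted p under 0.05, against 9.82% of all genes in either direction. DESeq2 called 2 of 53 (3.77%) against 3.16% of genes, and limma-voom 1 of 57 (1.75%) against 0.765%. The medians in that comparison were −0.14 for sterol synthesis, −0.01 for sterol uptake, transport and efflux, 0.06 for fatty acid metabolism and −0.29 for sphingolipid metabolism. For the fibrils, 0 reached an unadjusted p under 0.05 at 7 weeks, against 1.64% of all genes, and 4 (7.02%) at 12 weeks, against 5.57%.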

How the data were processed

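RNA was measured in 12 libraries of sorted mouse midbrain cells, 4 groups of 3, grouped by their titles. Libraries were made with the SMARTer Ultra-Low kit, per the labels' protocols. TopHat2 2.0.13, Bowtie2 2.2.3 and Cufflinks 2.2.1 are listed in the submitters' processing notes, and no genome build is named there. The authors deposited estimated counts and FPKM for 24346 genes. The deposited estimated counts are scaled: 98.9% to 99.2% of values per library were whole multiples, within 0.02 fragments, of a step of 0.685 to 1.30, and dividing by it gave the assigned fragments. The deposited FPKM values were used for levels between genes and for the limma alternatives.

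Counts were rounded and tested with the quasi-likelihood test of edgeR 4.0.16 (R 4.3.3) after filterByExpr and TMM scaling, with 1 mean per group. This left 8 residual degrees of freedom, and the common biological coefficient of variation was 46.6%. P-values were adjusted by Benjamini-Hochberg over 17380 genes, threshold 0.05. The SE given with a log2 fold change was derived from the test. It is the absolute log2 fold change divided by the square root of the F statistic. The procedure was tested on simulated data. No label ties a replicate to its own animal. The p-values therefore measure only how far these samples spread, which may be technical. The 7 comparisons were 12 against 7 weeks in each treatment and over both, synuclein against saline at each time and over both, and the difference of the fibril effect. The members and lists were chosen with earlier results of these data known, and the comparisons over both treatments and over both times were added after the others had been seen.

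Library values and full statistics are given for members called in any comparison, the 2 of highest mean CPM in each role and the one with the smallest p in each comparison; some other members are named with values for completeness of their role, chosen after their values were seen. Related genes are given by count. Alternatives were RLE or library-size scaling, DESeq2 1.42.0, limma 3.58.1 (voom, or log2 FPKM with pseudocounts of 1 and 0.1 and a mean FPKM of at least 1), no filter, recovered fragments, a replicate block, only the groups compared, and leaving out libraries. Coordinates and promoters come from RefSeq GRCm38.p6, where 26 of 36 members matched the deposited ends within 1000 bases.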

Additional observations from a re-analysis of the deposited data

How the results depend on the processing

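The count of members called for 12 against 7 weeks over both treatments was 3. It was also 3 with RLE scaling, library-size scaling, limma-voom (with Fa2h in place of Gal3st1) and recovered fragments, and 4 with no filter. DESeq2 called 7 members and 456 of all genes. With limma on log2(FPKM + 1) and on log2(FPKM + 0.1) it was 0, and without synuclein replicates 1 and 2 at 12 weeks it was 0, settings in which 0, 3 and 0 of all genes were called. Leaving out 1 library gave 1 to 5, with 24 to 214 of all genes called, against 145: 1 without saline replicate 2 or 3 or synuclein replicate 1 or 2 at 7 weeks, or saline replicate 1 or 3 or synuclein replicate 1 at 12 weeks, and 5 without saline replicate 2 at 12 weeks. The cause was not tested. In saline the count of 0 became 2 with DESeq2, and in synuclein 1 with DESeq2. The count stayed 0 in every setting for synuclein against saline at 7 weeks, at 12 weeks and over both times, and for the difference between the times.

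With the replicate number as a block the count was 4 over both treatments, with Fa2h added (adjusted p = 0.0122) and 246 of all genes called, and 1 in saline (Scd2, adjusted p = 0.0487), and 0 in the other comparisons. No label says whether the numbers pair the samples. Of 18 same-numbered pairs of libraries, deviations correlated from −0.06 to 0.11, 1 over 0.1. With 3 libraries per group such correlations cannot decide it.

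Scd2, Scd1 and Gal3st1 kept their sign over time in the 22 other settings of the comparison that called them. Of 5688 values of single members over all 7 comparisons, 316 had another sign than in the reported fit, all in comparisons where the member was not called there. Depth limits the scarce members most: Fads2 had 9 to 58 and Tm7sf2 20 to 81 fragments in a library.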
